A study of Homo sapiens with 2 samples.

Results

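PTPRN2 and DLGAP2 are 2 genes close to chromosome ends that were crowded with peak summits in a chromatin immunoprecipitation (ChIP-seq) list for Myocardin. They were chosen by their summit density in this same list. Summits were assigned by position in GRCh37, to PTPRN2 at chr7:157331750-158380482 (1.049 Mb, long arm of chromosome 7) and to DLGAP2 at chr8:1449569-1656642 (207.1 kb, short arm of chromosome 8). PTPRN2 held 177 and DLGAP2 held 32 of the 105637 summits in the list. Their density is therefore given as a description, without a test.

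The cells were A549, a human lung adenocarcinoma line, made to overexpress MYOCD stably from the vector pWPI, and the same cells served for an anti-Myocardin and an IgG precipitation. Each antibody had 1 library, and the single list ties no summit to either of them, so no replicate error and no comparison of antibodies could be given. Whether the stable line was 1 clone is not stated in the labels. Intervals below are 95% intervals for counting error only. They treat summits as independent, which neighbouring summits need not be.

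Myocardin activates genes of smooth and heart muscle and reaches DNA mainly through the serum response factor, which binds the CArG box. A summit is the position where the signal of a peak was highest. PTPRN2 encodes a receptor-type protein tyrosine phosphatase (IA-2 beta) of the dense-core vesicles of neuroendocrine cells, where it takes part in hormone secretion, and it is an autoantigen in type 1 diabetes. DLGAP2 encodes a scaffold protein of the postsynaptic density that binds PSD-95. Both are best known from neurons or endocrine cells, and neither is a classical muscle gene. PTPRN2 is transcribed from the chromosome end inwards, and so is DLGAP2.

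PTPRN2 carried 169 summits per Mb (145 to 196), or 1 for every 5.93 kb. The rest of the outer 5 Mb of the same arm held 388 summits at 98.2 per Mb (88.7 to 108), and the remainder of chromosome 7 held 38.4 per Mb (37.4 to 39.4). For this remainder, stretches of at least 1 Mb without a summit were left out of the length, whereas the arm end was taken at full length. PTPRN2 was thus 1.72 times as dense as the rest of the arm end (1.43 to 2.06) and 4.39 times as dense as the remainder of the chromosome (3.76 to 5.10). It took up 21.0% of the outer 5 Mb and held 31.3% of its summits. Taken whole, both sides of the gene were less crowded. The 0.758 Mb between its start and the chromosome end, which holds NCAPG2, a condensin II subunit gene, and ESYT2, carried 116 summits per Mb (93.1 to 143). This side includes a sparse stretch at the chromosome end, with 7 and 1 summits in its outermost steps of 100 kb. Nearer the gene, outwards from its start, pieces of 100 kb held 11, 13, 14, 13 and 15, against 14 to 20 inside the gene. The contrast on this side was thus smaller next to the gene. The 1.05 Mb past the end of PTPRN2, the side of the co-chaperone gene DNAJB6 and the ubiquitin ligase gene UBE3C, carried 95.4 per Mb (77.6 to 116). These neighbours are named from gene order in a RefSeq table of GRCh38.p14 and were not placed in GRCh37.

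DLGAP2 carried 155 summits per Mb (106 to 218), or 1 for every 6.47 kb. The remainder of chromosome 8, its length taken as for chromosome 7, held 35.3 per Mb (34.3 to 36.3). The rest of the outer 5 Mb of the arm of DLGAP2 held 301 summits at 62.8 per Mb (55.9 to 70.3), a ratio of 2.46 (1.65 to 3.55). The ratio rested on where the arm end was bounded, because the crowding ran on beyond the span used for DLGAP2 on both sides. Longer DLGAP2 transcripts start nearer the chromosome end, so some sequence counted here as before the gene may belong to it. From the chromosome end to the gene, past TDRP and ERICH1, there were 115 summits per Mb (98.4 to 134), and the first 0.700 Mb past the gene, on the side of CLN8, held 134 (109 to 164). From there to the 5 Mb boundary the density was 15.1 (10.8 to 20.6). Measured against the outer 3 Mb in place of 5 Mb, the ratio was 1.54. The windows of equal length directly before and after the gene held 26 and 21 summits against its 32, and the interval of each density overlapped that of the gene.

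**Figure D1:**
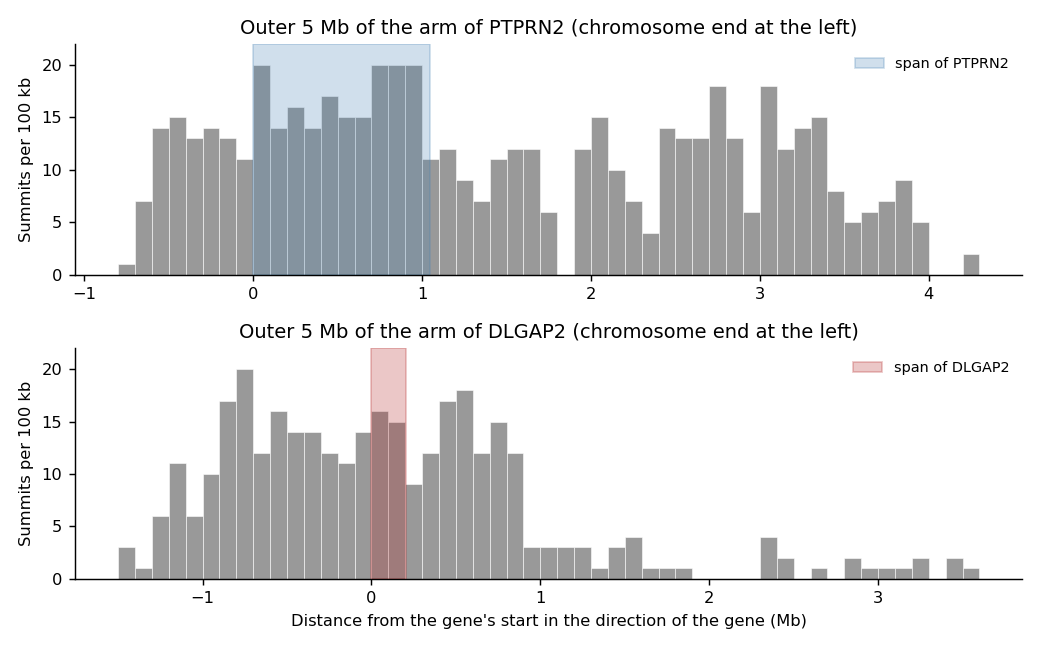
Summits per 100 kb (bars) over the outer 5 Mb of each arm, by distance from the gene's start in Mb, with the span of the gene shaded. PTPRN2 holds 14 to 20 summits per 100 kb (median 16.5) against 0 to 18 outside it (median 11), so the ranges overlap. DLGAP2 with 15 and 16 lies inside a crowded block that ends about 0.9 Mb past its start.

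In steps of 100 kb from its start, PTPRN2 held 14 to 20 summits in each of the 10 steps that fit the gene, with a median of 16.5. Outside the gene the 40 steps of the same arm end held 0 to 18 summits (median 11), and 2 of them reached the median of the gene. DLGAP2 gave 15 and 16 summits in its 2 steps, and 5 of the 48 outside steps reached its median of 15.5. The median of those 48 was 3, with a highest step of 20. The densities of both genes overlapped in their intervals, with a ratio of PTPRN2 to DLGAP2 of 1.09 (0.746 to 1.65).

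Windows of the same length were laid side by side over the covered sequence of the autosomes and X. By summits of any score, PTPRN2 stood at the top and DLGAP2 near it. None of the 2664 windows as long as PTPRN2 held 177 summits or more, a background share of 0% with an upper limit of 0.138%. The median window held 27 summits and the fullest 151. Of the 13704 windows as long as DLGAP2, 62 held 32 or more, a background share of 0.452% (0.347 to 0.580), and the median was 5. In the outer 5 Mb of chromosome arms the medians were 78 summits for the length of PTPRN2 and 15 for that of DLGAP2. There, 0 of 140 windows reached PTPRN2, while 27 of 940 reached DLGAP2 (2.87%, 1.90 to 4.15). The genes were chosen for their density, so nothing further is read from these shares.

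**Figure D2:**
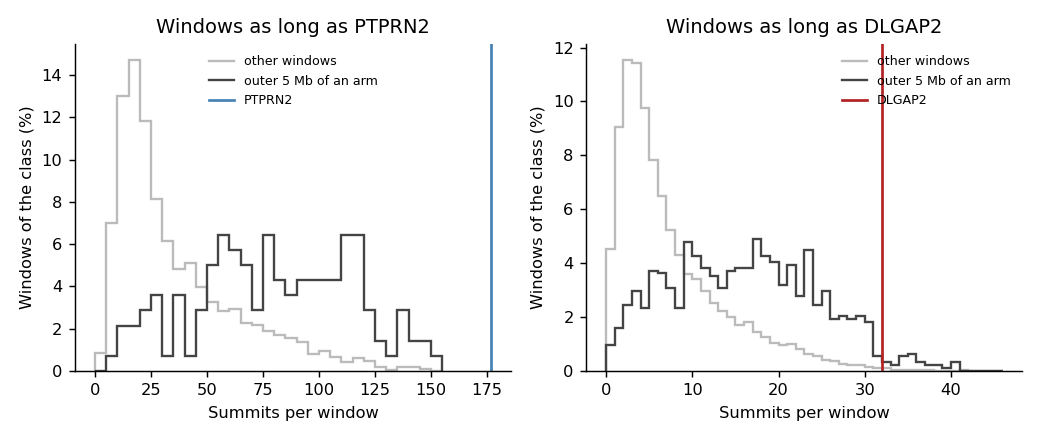
Share of windows (%) by the number of summits they held, for windows as long as PTPRN2 (left, steps of 5 summits) and as long as DLGAP2 (right, steps of 1), in the outer 5 Mb of arms (dark line) and elsewhere (grey line); the coloured line marks the gene. PTPRN2 at 177 lies beyond the fullest window of 151, and DLGAP2 at 32 lies within the upper tail.

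The lead of PTPRN2 was smaller when windows could start at any summit. A window of the same length on chromosome 19, at chr19:40315061-41363793, then held 173 summits against 177 in the gene, and no chromosome had a window elsewhere with more than the gene. The span of PTPRN2 itself nearly coincided with the densest placement on its chromosome, which held 178. For DLGAP2 the fullest window elsewhere held 47 summits, also on chromosome 19, and 18 chromosomes had a window with more than 32. This sliding placement was added after the first values were seen.

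The summits on either side of each border were as follows. At the start of PTPRN2 the outermost summit inside, at 158380359, lay 0.123 kb from the border and scored 10.01, and the next one outside, at 158381089, scored 12.26. At its far end the outermost summit inside scored 6.93 and the next outside, 12.2 kb beyond the border, scored 7.68. For DLGAP2 the summit just outside the start, at 1448688, lay 0.881 kb away and scored 7.15, while the first inside, at 1455514, scored 20.60 and lay 5.95 kb from the start, which is near the mean spacing in the gene. At the far end the last inside scored 15.08 and the next outside 9.22.

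The score is the authors' own value for each peak and serves only to rank peaks within the list. Scores in PTPRN2 had a median of 7.71 (6.92 to 8.60) and quartiles of 5.45 and 10.51, and lay between 3.16 and 68.1. The median of the rest of the arm end was 8.11 (7.73 to 8.54), that of the remainder of chromosome 7 was 8.88 and that of the whole list 8.50. Of the 177 summits, 33 were in the top 25% of scores (18.6%, 13.2 to 25.2). The background over the list is 26.3%, above 25% because 1692 peaks have exactly the limiting score, and the share in the rest of the arm end was 19.6% (15.8 to 23.9). The interval of PTPRN2 left out the share of the list and included that of its own arm end. At the low end, 68 of its summits (38.4%, 31.2 to 46.0) fell below the lower quartile of the list. This share was 23.7% (19.6 to 28.3) in the rest of the arm end and 23.8% over the list. At the high end 17 (9.60%, 5.70 to 14.9) reached the top 10% of scores, near the 10.0% of the list. In the rest of the arm end 5.41% (3.38 to 8.15) did. Compared with its arm end, PTPRN2 thus had the larger share of low scores beyond counting error, while the intervals at the high end overlapped. The share of low scores was not compared with windows of similar summit count.

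Scores in DLGAP2 lay between 3.01 and 20.6, a narrower range than in PTPRN2, though a range widens with the number of summits. DLGAP2 had a median score of 9.05 (7.37 to 11.53). Of its 32 summits 8 were in the top 25% (interval 11.5% to 43.4%), against 23.9% (19.2 to 29.1) in the rest of its arm end. In the top 10% of scores there was 1 (3.12%, 0.0791 to 16.2), against 12.3% in the rest of the arm end and 10.0% in the list, both inside that interval. No difference from the arm end was seen beyond counting error at either limit, and with 32 summits one could have been missed. The median score of DLGAP2 and that of PTPRN2 also had overlapping intervals.

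The strongest summits of PTPRN2 lay in the part nearer its start. The highest, at 157944134, scored 68.1 and ranked 80 in the list, and a neighbour at 157941052, 3.08 kb away, scored 41.8. The second highest, at 158152860, scored 60.9 and ranked 104. Next came 158314558 with a score of 30.9 and 158362604, 17.9 kb from the start, with 29.0. All 10 summits with scores of 20 or more lay between 17.9 and 439 kb from the start. In DLGAP2 the highest score belonged to the first summit inside the span used, at 1455514 (20.6, rank 5902). The others of the top 5, at 1649660, 1574318, 1516671 and 1495250, scored from 14.6 to 15.1 and were spread over the length of the gene.

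Within PTPRN2 the scores were lower past the middle of the gene, at nearly equal summit density. Divided at its midpoint, the start-side segment held 87 summits (166 per Mb) and the end-side segment held 90 (172 per Mb). Of the start-side summits, 30 were in the top 25% of scores (34.5%, 24.6 to 45.4), and of the end-side summits 3 were (3.33%, 0.693 to 9.43). Median scores were 9.49 (7.40 to 10.88) and 6.83 (6.00 to 7.88), and the highest scores 68.1 and 15.4. On the start and end side the median gaps were 5.72 and 5.38 kb, and 48.3% and 40.0% of summits had another within 2 kb. The end-side segment also held most of the low scores, with 43 of its 90 summits (47.8%) below the lower quartile of the list. On the start side 25 of 87 (28.7%) were, and over the list 23.8%.

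**Figure D3:**
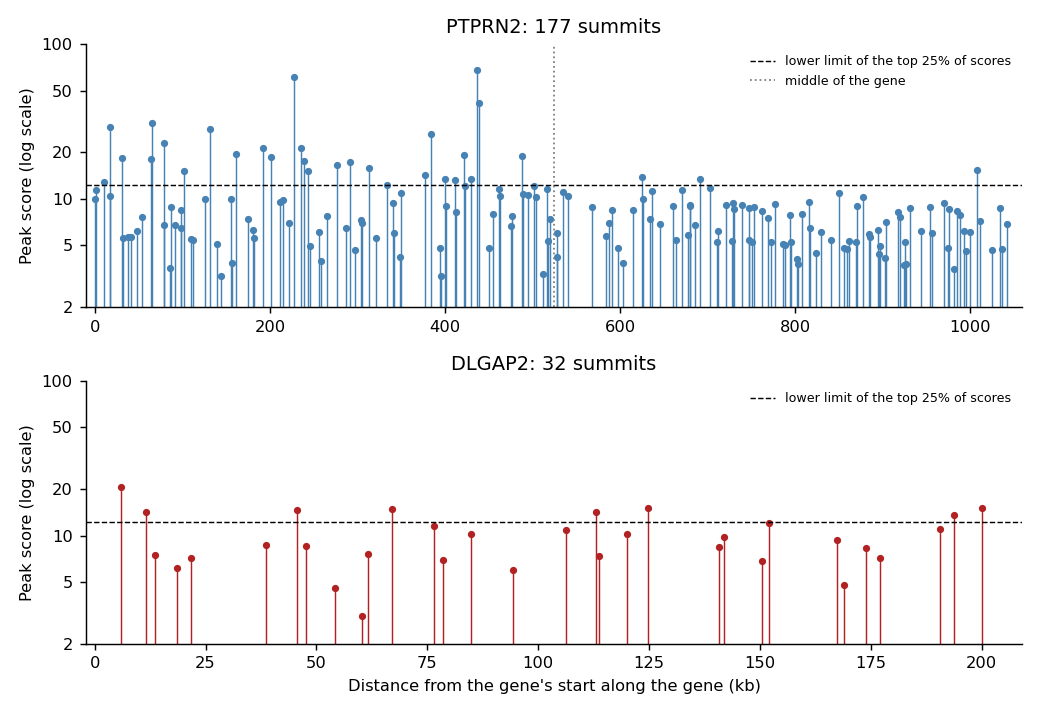
Peak score (log scale) of each summit by distance from the gene's start in kb, for PTPRN2 (177 summits) and DLGAP2 (32 summits); the dashed line is the lower limit of the top 25% of scores in the list. In PTPRN2 30 of 87 start-side summits reach the line and 3 of 90 end-side ones do, while in DLGAP2 4 of 16 do on either side of its middle.

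The stretch with few scores in the top 25% did not run on into the arm past the gene. Median scores showed this less clearly. They were 8.51 from 500 to 750 kb, 6.07 from 750 to 1000 kb and 7.75 from 1000 to 1250 kb. The 300 summits from the outer 5 Mb boundary to the gene had a median of 7.79. In pieces of 250 kb from the start of PTPRN2, the share of summits in the top 25% was 34.9% and 36.8% in the first pair of pieces, 7.50% (3 of 40, 1.57 to 20.4) in the next, and 0 of 50 between 750 and 1000 kb, for which the exact interval reaches 7.11%. The piece from 1000 to 1250 kb, mostly past the end of the gene, had 30.8% (8 of 26, 14.3 to 51.8), and the 3 pieces beyond it had 21.4% to 29.2%. On the other side, between the start and the chromosome end, 9 of 36 to 10 of 30 summits a piece were in the top 25%. The piece without high scores was also the most crowded of all, with 50 summits.

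**Figure D4:**
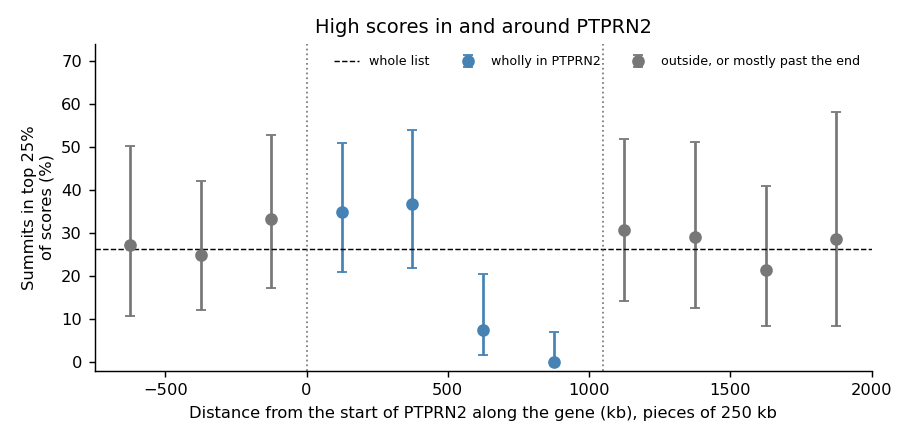
Share of summits in the top 25% of scores (%, points with exact 95% intervals) in pieces of 250 kb by distance from the start of PTPRN2; dotted lines mark the borders of the gene and the dashed line the 26.3% of the whole list. The pieces from 500 to 1000 kb hold 7.50% and 0%, and every other piece drawn holds 21.4% or more.

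Windows with as large a contrast were few by this share and more frequent by the median score. Among the 299 equally long windows with at least 80 summits, 4 (1.34%) had midpoint-divided parts that differed by 31.1 percentage points or more in this share, and the median difference was 7.09. In 15 of them (5.02%) the median scores of both parts differed by at least the 2.65 of PTPRN2. The midpoint, the pieces and the minimum of 80 summits were chosen after the scores of PTPRN2 had been seen, so this is a description and not a test. In DLGAP2 4 of 16 summits were in the top 25% on each side of its midpoint. Its medians were 8.08 on the start side and 10.02 on the end side, the opposite order to PTPRN2. With 16 summits a side, a contrast could have been missed.

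By counts in short pieces the summits of PTPRN2 were more evenly spread than in most crowded windows. Its 20 pieces of 50 kb held 5 to 12 summits each, with a median of 9, and all of them exceeded the list median of 1, as 43.9% of such pieces over the genome do. The variance of these counts was 0.400 times their mean, or 0.331 with the pieces laid from the other end. Among the 299 crowded windows the ratio lay between 0.352 and 3.89 (median 1.01), and 3 windows were more even than 0.400. By the gaps themselves PTPRN2 lay within the range of the 9 equally long windows within 20% of its count, with a coefficient of variation of 0.753 against 0.746 to 1.02, and 2 of the 9 were more even. In 10 equal parts of 105 kb the counts lay between 13 and 21, with 21 in the part at the start and 21 in the last but one, so the summits were not gathered at the start. The 4 pieces of 50 kb in DLGAP2 held 7 or 8 summits each.

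Adjacent summits in PTPRN2 had a median gap of 5.60 kb (4.88 to 6.33), against 7.27 kb (6.60 to 7.92) in the rest of its arm end and 12.2 kb in the whole list. Its longest gap, between 158002911 and 158030702, was 27.8 kb, whereas the rest of the arm end had one of 223 kb. Its shortest, between 158300811 and 158301349, was 538 bp, so no pair lay under 0.5 kb. In DLGAP2 the median gap was 5.70 kb (3.27 to 6.87), against 6.93 kb (5.96 to 7.99) in the rest of its arm end, and gaps ran from 462 bp (1562696 to 1563158) to 16.9 kb (1471370 to 1488232). The arm end of DLGAP2 had a gap of 441 kb.

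The gaps of PTPRN2 fell into more than 1 class of distance. Gaps of 0.5 to 1.5 kb made up 29 of 176 (16.5%, 11.3 to 22.8), against a background of 8.77% over the list and 14.0% in the rest of the arm end. Gaps of 2 to 5 kb made up 40 (22.7%, 16.8 to 29.6), against 9.46% over the list and 13.5% (10.2 to 17.3) in the rest of the arm end. Gaps of 5 to 8 kb made up 49 (27.8%, 21.4 to 35.1), against 14.5% and 22.3%. Short gaps become more frequent with density by construction, so windows of like count serve as a closer comparison. Only 9 equally long windows came within 20% of 177, all with fewer summits (142 to 151), and the gene's share of 2 to 5 kb gaps was above all 9 (12.1% to 19.3%). Its shares of 0.5 to 1.5 kb and of 5 to 8 kb gaps lay within their ranges, 12.1% to 21.0% and 23.3% to 31.0%.

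**Figure D5:**
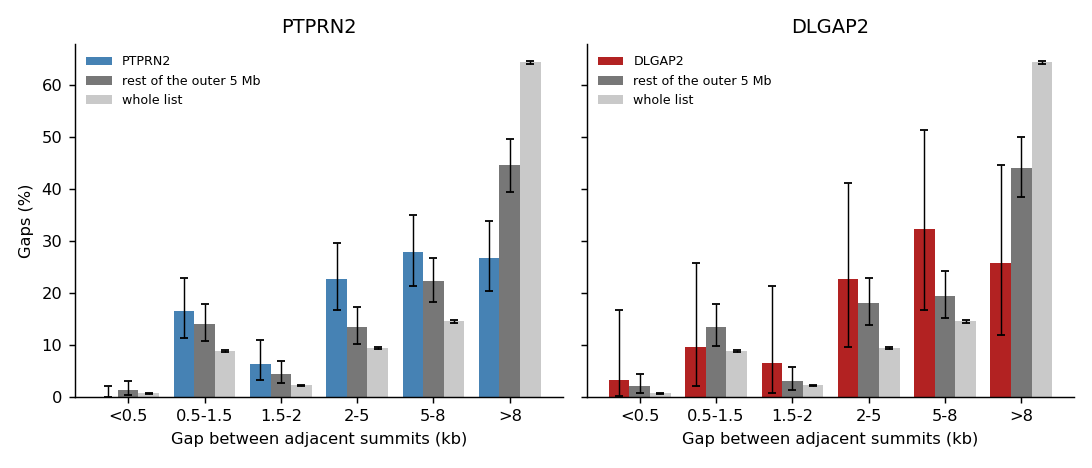
Share of gaps between adjacent summits (%) by distance class in kb, for each gene, the rest of the outer 5 Mb of its arm and the whole list; error bars are exact 95% intervals. PTPRN2 has 22.7% of its gaps at 2 to 5 kb against 13.5% in the rest of the arm end, and gaps over 8 kb are fewer in both genes than the 64.4% of the list.

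DLGAP2 had 31 gaps, and each class had a wide interval. It had 3 gaps of 0.5 to 1.5 kb (9.68%, 2.04 to 25.8), 7 of 2 to 5 kb (22.6%, 9.59 to 41.1) and 10 of 5 to 8 kb (32.3%, 16.7 to 51.4). Over the list these classes made up 8.77%, 9.46% and 14.5% of gaps. In the rest of its arm end they made up 13.4%, 18.1% and 19.4%, each inside the interval of the gene. Against the 318 equally long windows whose count was within 20% of its own, DLGAP2 lay inside the range in spacing, with 129 windows having a shorter median gap and 189 a longer one. Its median score of 9.05 was above that of 261 of them and below that of 57, and its share of high scores was above 237 and below 72. For PTPRN2 the median score lay above 4 and below 5 of its 9 windows, and the share of high scores above 5 and below 4.

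PTPRN2 had 29 pairs of adjacent summits 0.5 to 1.5 kb apart, in which the higher score was a median of 1.43 times the lower (1.02 to 3.39), against 1.46 over the 9263 such pairs of the list. This ratio is at least 1 by construction, and pairs farther apart were not compared. Grouping summits less than 1.5 kb from the next gave 121 single summits, 25 pairs and 2 triplets in PTPRN2, and 24 singles and 4 pairs in DLGAP2. The summits of PTPRN2 with a neighbour under 2 kb away had a median score of 7.04 with 12.8% in the top 25% (6.32 to 22.3). Those with the nearest at 2 to 5 kb had 7.32 with 19.6% (10.2 to 32.4). Those with the nearest at 5 to 8 kb had 10.01 with 27.3% (13.3 to 45.5). The 10 with none within 8 kb had 8.61 with 30.0% (6.67 to 65.2). Over the list the same distances, in this order, gave medians of 7.95, 7.85, 8.50 and 9.22. The list shares were 19.2%, 17.1%, 26.8% and 32.9%.

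Many peaks of the list repeat exactly the same score. Scores held by at least 150 peaks each made up 29.4% of the list but only 9 of 177 in PTPRN2 (5.08%, 2.35 to 9.43) and 2 of 32 in DLGAP2 (6.25%, 0.766 to 20.8). In the rest of the arm ends the shares were 9.79% (7.02 to 13.2) and 13.0% (9.38 to 17.3). Over the list this share differed with crowding, at 7.46% for summits with a neighbour under 2 kb away and 50.2% for those with none within 8 kb. Its part in the difference of the genes from the list was not tested.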

How the data were processed

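The authors deposited 1 table of peaks, whose columns give the position, the strand and the score of each peak, per the file headers. Each interval is 1 bp wide, and its end was taken as the summit. The deposited score has no stated unit. The file is named for the peak caller MACS. The caller's version and threshold, the aligner, the use of IgG as control and the depth of each library are not stated in the labels or headers. CASAVA 1.4 and the builds mm9 and GRCh38.p12 stand in the submitters' processing notes, but the build of the positions is inferred from chromosome lengths: 0 nuclear summits lie past a GRCh37 chromosome end and 1093 past a GRCh38 end.

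Gene spans came with the choice of the genes, and exons and introns were not assigned, since no GRCh37 annotation was used. The genes, lists and comparisons were chosen with earlier results of these data known. Strand was taken from general knowledge. Longer DLGAP2 transcripts that start nearer the chromosome end are known, and their extra length was not counted as the gene. Covered sequence was the span between summits without stretches of at least 1 Mb lacking one. Intervals were exact Poisson (densities), conditional binomial (ratios), Clopper-Pearson (shares) and order-statistic (medians). No p-value was computed, since there were no replicates. Summits named by position were the 5 highest scores, those nearest the borders and the ends of the shortest and longest gaps, windows the 3 fullest per length, and neighbours the 2 nearest protein-coding genes per side with a name other than a LOC number, of which 1 is not reported here. Counting in windows, counting of gaps, merging of close summits and the interval of ratios were tested on simulated lists. For windows and ratios the simulated summits were placed independently, and the other intervals were not tested. Alternatives were other spans, arm ends, window grids, score limits and merging of summits under 500 bp. Python 3.11.15, numpy 2.4.6, pandas 2.3.3 and scipy 1.17.1 were used.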

Additional observations from a re-analysis of the deposited data

How the results depend on the processing

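Of 66 alternatives over 14 results, 47 stayed within the interval of the value, and 19 moved outside it. Both density ratios stayed above 1 throughout, from 1.61 to 2.08 for PTPRN2 and from 1.54 to 2.89 for DLGAP2. Counted over only the top 25% of scores, PTPRN2 had 31.5 and DLGAP2 38.6 summits per Mb, and 1.09% and 1.84% of equally long windows held as many or more. Counted over scores at or above the median, the densities were 72.5 and 86.9 per Mb, the median gaps 9.59 and 8.53 kb, and the shares of gaps of 0.5 to 1.5 kb 9.33% and 0%. Densities fall and gaps lengthen by construction when fewer summits enter. The window shares do not follow by construction, since the same limit applied to the gene and the windows. Among top 25% scores PTPRN2 therefore no longer stood above every window. The ratio of PTPRN2 was 2.08 over the outer 10 Mb, and that of DLGAP2 was 1.54 over the outer 3 Mb, which leaves out the sparse part beyond it. Among windows in the outer 5 Mb of an arm alone, 2.87% held as many summits as DLGAP2. With the limit set at the top 10% of scores, 9.60% of the summits of PTPRN2 and 3.12% of those of DLGAP2 passed, and with the limit at the median 42.9% and 56.2% did. The order of gene and arm end turned at the top 10%, from 18.6% against 19.6% to 9.60% against 5.41% for PTPRN2 and from 8 of 32 summits against 23.9% to 3.12% against 12.3% for DLGAP2, with overlapping intervals at both limits. The median score of PTPRN2 was 9.49 on the start side and 6.83 on the end side of its midpoint, which are the 2 alternatives chosen after seeing the data. There were no replicates to leave out and no read counts from which a limit of depth could be had.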

Other observations

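Of the windows laid side by side, the fullest of the length of PTPRN2 were on chromosome 8 at 143676422 to 144725154 with 151 summits, and on chromosome 17 at 7341132 to 8389864 and at 77606243 to 78654975 with 147 each. Their median scores were 6.85, 8.48 and 7.50, and 15.2%, 24.5% and 15.0% of their summits were in the top 25% of scores, against 7.71 and 18.6% in PTPRN2. For the length of DLGAP2 the fullest window on this fixed grid was on chromosome 19 at 41000653 to 41207726 with 45 summits and a median score of 9.65. Windows on chromosome 15 at 28576213 to 28783286 and on chromosome 7 at 102087483 to 102294556 held 41 each, with median scores of 10.29 and 7.45. No gene was assigned to any of these windows.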
